A study of Mus musculus with 11 samples.

Results

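The 34 genes described here repair double-strand breaks and DNA crosslinks by homologous recombination and the Fanconi anemia pathway. They were taken from a list of gene symbols, and 33 of the 34 had a row among the 28284 genes of the count table (Fanca was not analysed here). All 33 had a mean of at least 10 counts over the libraries, and all 33 passed the filter on low counts in both comparisons between sites of origin. The libraries are RNA sequencing of 11 cell lines grown out of female OvTrpMyc mice, 1 library per line. The lines came from 7 ovaries, 2 uteri, 1 splenic tumor and 1 peritoneal tumor of 7 mice.

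Every line was labelled with the genotype Ovgp1-Trp53-R270H-Myc, from mice on a C57BL/6J background with 1 copy of a transgene in the Trp53 locus, in which the oviduct promoter Ovgp1 drives mutant p53 (R270H) and Myc. The study's genotyping found only the mutant Trp53 allele in the cells grown out of the mice, and it describes the F361 line as lacking expression of mutant p53, so F361 differs from the other lines as a model. All lines were untreated and were collected while dividing in RPMI 1640, from mice that met euthanasia criteria. The ages of the single mice were not given in the labels, and no wild-type line was among the samples. The ovary lines were a left (LOV) and a right (ROV) line of F318 and of F364, and 1 right line each of F319, F326 and F339. The uterus lines were F319 and F333, the splenic tumor line was F326, and the peritoneal tumor line was F361. Since 4 of the mice gave 2 lines each, the lines were not all independent, and p-values over lines measure the spread between these lines.

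Homologous recombination copies a broken stretch of DNA from the sister chromatid and is therefore used mainly in S and G2 phase. BRCA1, bound to BARD1, acts with the MRN complex and CtIP to trim the broken ends, and PALB2 then brings BRCA2 to the single strand, which pairs with the sister chromatid. The Fanconi anemia core complex places ubiquitin on FANCD2 and FANCI at a crosslink, after which nucleases cut around it and recombination closes the break. Loss of BRCA1 or BRCA2 is the best known recombination defect of ovarian cancer, and many of these genes are transcribed as cells enter S phase.

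Library totals ran from 13580525 counts (F361) to 27044598 counts (F319 uterus), so that 3 counts, taken as the floor of detection, were 0.111 to 0.221 counts per 1e+06 counts of the library (CPM). Libraries 1 to 7 (both tumor-site lines and the ovary lines F318 ROV, F319 ROV, F326 ROV, F364 LOV and F364 ROV) held 8.40% to 15.8% of their counts on 29 adult skeletal muscle fiber genes, against 0.249% to 1.43% in libraries 8 to 11 (both uterus lines with F318 LOV and F339 ROV). Y-linked genes, in lines from female mice, summed to 128 to 174 CPM in the first set and to 1.75 to 19.2 CPM in the second. The summed level of 20 M phase genes was 81.1 to 944 CPM in the first set, against 2619 to 3122 CPM in the second. The lines are labelled ovarian cancer. Krt8 was under 1 CPM in every line but F319 ROV (52.7 CPM), Epcam did not exceed 2.12 CPM (F339 ROV), and Pax8 did not exceed 3.04 CPM (F319 ROV). Other epithelial genes were higher in some lines. The epithelial list summed to 118 CPM in F364 ROV and 74.0 CPM in F326 ROV, where Krt8, Epcam and Pax8 were each under 1 CPM. The epithelial list of 13 genes summed to 10.1 to 241 CPM in the first set and to 12.3 to 44.8 CPM in the second, with 2 to 9 and 2 to 5 of its genes at 1 CPM or more, and Cldn4 and Muc16 were at or below the floor in all of libraries 8 to 11. The mesenchymal list of 13 genes summed to 1455 to 16007 CPM in the first set, against 20438 to 36249 CPM in the second. Library number is not a condition of the study, so the libraries are set side by side below without a test. The cut after library 7 was set with earlier results of these data known, in which libraries 1 to 7 held more muscle fiber and Y-linked reads. The separation of those reads at this cut is thus no independent result. Fewer dividing cells and less RNA per cell cannot be told apart in bulk libraries, and the part of the muscle and Y-linked reads in each level was not tested.

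Brca1 and its partner Bard1 were lowest in the F361 peritoneal tumor line and next lowest in the F326 splenic tumor line. Brca1 had 6 counts in F361, or 0.442 CPM (95% Wilson interval 0.202 to 0.964), and 2.40 CPM (1.75 to 3.30) in the splenic tumor line. Among the ovary lines of libraries 1 to 7, Brca1 was at 5.42 CPM in F319 ROV, 6.68 in F326 ROV, 9.13 in F364 ROV, 9.43 in F364 LOV and 11.9 in F318 ROV. In libraries 8 to 11 it was at 51.8 CPM in F339 ROV, 33.4 in F318 LOV, 55.9 in the F319 uterus line and 31.9 in the F333 uterus line. No library of 1 to 7 reached any library of 8 to 11, and the highest line, F319 uterus, was 127-fold above F361.

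Bard1, which forms a ubiquitin ligase with Brca1, had 0 counts in F361, where 3 counts would be 0.221 CPM. It was at 0.506 CPM (8 counts) in the splenic tumor line, and at 1.52 CPM in F319 ROV, 1.97 in F364 ROV, 2.27 in F326 ROV, 2.91 in F364 LOV and 4.62 in F318 ROV. F318 LOV stood highest with 35.5 CPM, above F339 ROV (12.7), F319 uterus (14.6) and F333 uterus (11.8). The ratio of Brca1 to Bard1 counts was 0.942 (exact 95% interval 0.853 to 1.04) in F318 LOV and 2.57 to 4.75 in the 9 other lines in which Bard1 was counted. F318 LOV was thus the line with as many Bard1 as Brca1 counts, and its interval met none of the others.

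Brca2, which acts after end trimming, did not follow Brca1 in the lowest line. It was at 3.02 CPM (2.23 to 4.10) in F361, at 3.23 (2.45 to 4.24) in the splenic tumor line and lowest in F326 ROV, at 2.27 (1.62 to 3.17), and these 3 intervals overlapped. The other lines of libraries 1 to 7 were at 5.01 (F364 ROV), 4.75 (F364 LOV), 6.90 (F319 ROV) and 8.51 CPM (F318 ROV). In libraries 8 to 11 Brca2 was at 34.4 CPM in F339 ROV, 28.8 in F318 LOV, 27.5 in F333 uterus and 15.0 in F319 uterus. The F319 uterus line, highest of all for Brca1, was thus the lowest of its set for Brca2. The ratio of Brca1 to Brca2 counts was 0.146 (0.0508 to 0.347) in F361 and 3.73 (3.34 to 4.17) in F319 uterus, and it was 1.16 in F318 LOV, 1.16 in F333 uterus and 1.503 in F339 ROV.

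Palb2, the bridge between BRCA1 and BRCA2, followed Brca1 in its lowest lines. It was at 0.589 CPM (8 counts) in F361, 0.886 in the splenic tumor line, 2.66 in F364 ROV, 1.52 in F364 LOV, 1.60 in F326 ROV, 1.70 in F319 ROV and 4.34 in F318 ROV. In libraries 8 to 11 the 4 lines lay close together, at 6.16 (F339 ROV), 6.37 (F318 LOV), 7.40 (F319 uterus) and 5.57 CPM (F333 uterus). In the plot of the core genes the library sets did not overlap in any of the 4 genes. The gap was smallest for Palb2, from 4.34 CPM in F318 ROV to 5.57 in F333 uterus.

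**Figure D1:**
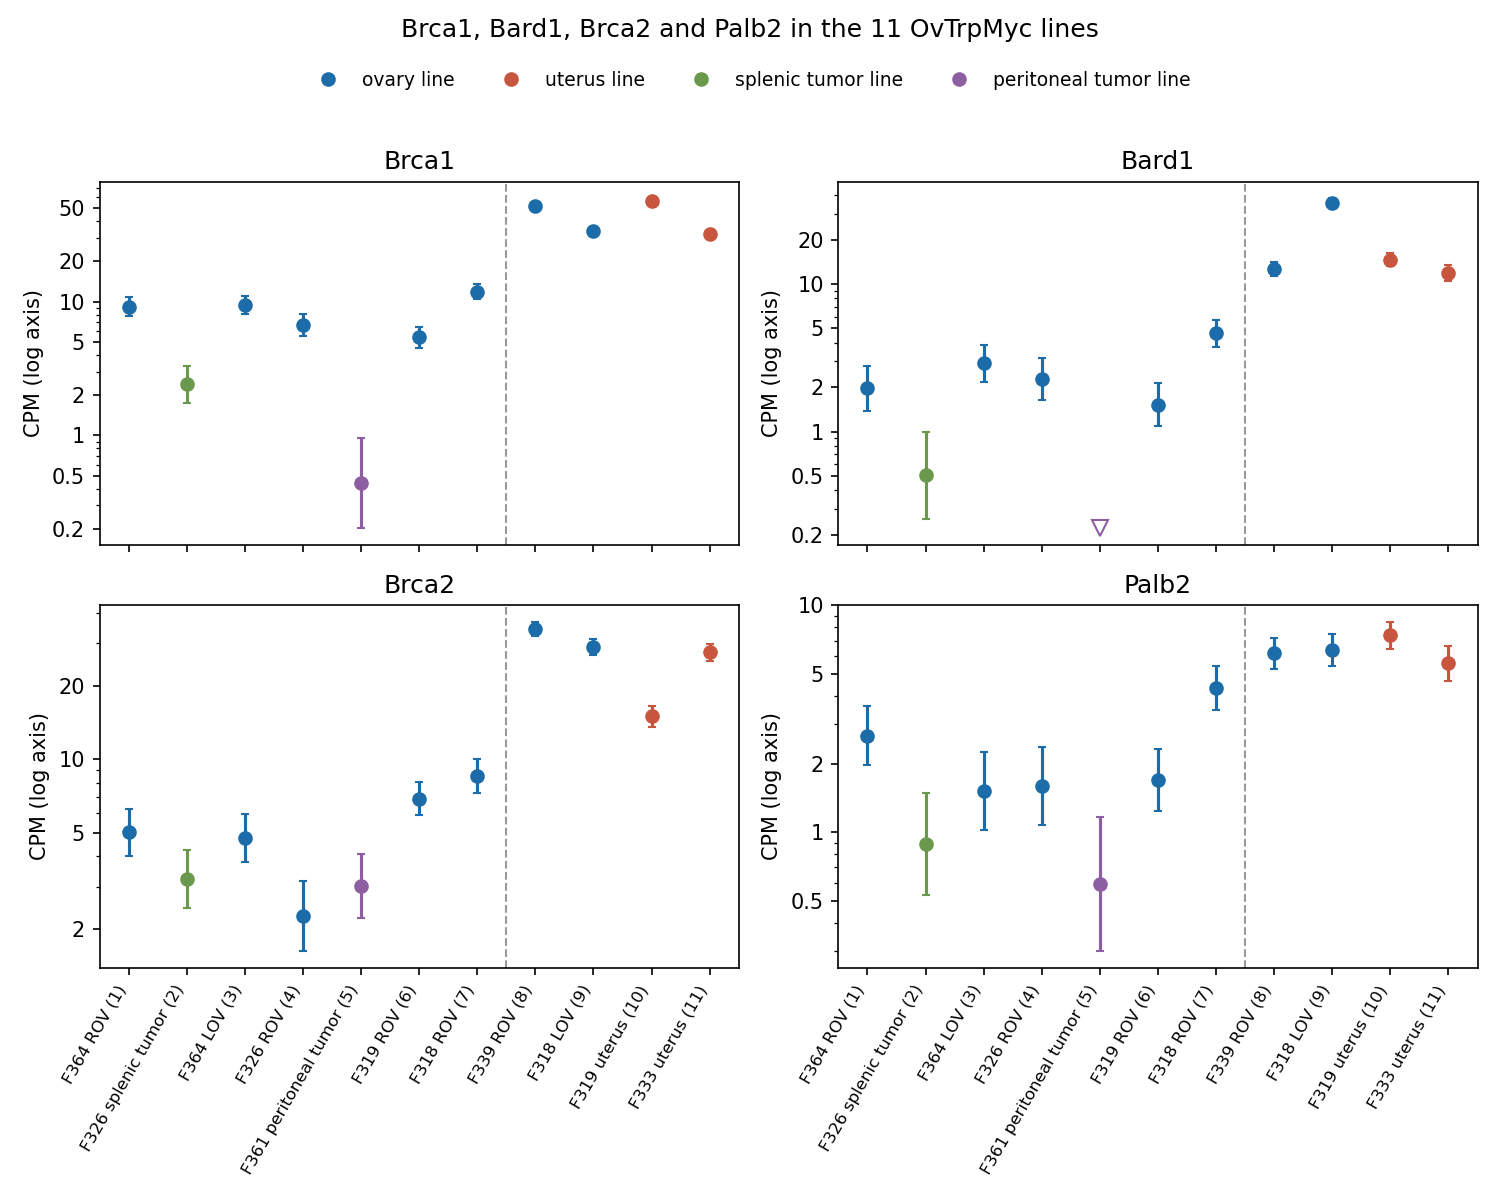
Brca1, Bard1, Brca2 and Palb2 in each of the 11 lines, as CPM on a log axis, with 95% Wilson intervals (counting error only), 1 library per point and the library number in brackets. The dashed line separates libraries 1 to 7 from 8 to 11, and the open triangle marks the 3-count floor (0.221 CPM) in F361, where Bard1 had 0 counts. Every point of libraries 8 to 11 lies above every point of libraries 1 to 7 in each panel.

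The promoters of 5 members are shown here: Brca1, Bard1 and Brca2 as core genes that were higher in every library of 8 to 11, and Xrcc3 and Mus81 as members that overlapped between the library sets. The stretches are the annotated upstream bases that hold no exon, from RefSeq on GRCm38.p6, written along the strand of the gene. Brca1 lies at chr11:101551956-101552148 (minus strand), Brca2 at chr5:150522371-150522620 (plus), Bard1 at chr1:71103147-71103222 (minus), Xrcc3 at chr12:111813880-111814129 (minus) and Mus81 at chr19:5488403-5488629 (minus). The Bard1 stretch ends 174 bases and the Mus81 stretch 23 bases before the annotated start, since the bases nearer to it hold an exon, and the others reach the start. Capitals mark matches, on either strand, to the E2F letters TTTCCCGC, TTTCGCGC, TTTGCCGC and TTTGGCGC, to the cell cycle homology region TTTGAA, or to CCAAT.
Brca1: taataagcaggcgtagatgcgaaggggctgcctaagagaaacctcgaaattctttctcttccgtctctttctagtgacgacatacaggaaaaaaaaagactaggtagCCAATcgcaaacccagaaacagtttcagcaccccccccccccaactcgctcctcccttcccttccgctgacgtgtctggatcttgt
Brca2: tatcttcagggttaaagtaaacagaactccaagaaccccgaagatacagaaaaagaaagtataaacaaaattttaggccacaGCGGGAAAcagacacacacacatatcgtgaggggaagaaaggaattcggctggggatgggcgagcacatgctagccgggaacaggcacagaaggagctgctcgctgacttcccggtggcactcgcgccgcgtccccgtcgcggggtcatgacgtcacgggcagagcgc
Bard1: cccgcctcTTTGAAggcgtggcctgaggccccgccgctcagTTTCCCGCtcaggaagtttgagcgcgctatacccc
Xrcc3: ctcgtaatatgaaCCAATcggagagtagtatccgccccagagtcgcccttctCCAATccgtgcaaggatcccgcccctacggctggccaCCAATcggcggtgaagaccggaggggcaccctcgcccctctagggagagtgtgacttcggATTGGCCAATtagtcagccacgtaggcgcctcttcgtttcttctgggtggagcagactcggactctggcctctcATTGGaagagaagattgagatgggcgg
Mus81: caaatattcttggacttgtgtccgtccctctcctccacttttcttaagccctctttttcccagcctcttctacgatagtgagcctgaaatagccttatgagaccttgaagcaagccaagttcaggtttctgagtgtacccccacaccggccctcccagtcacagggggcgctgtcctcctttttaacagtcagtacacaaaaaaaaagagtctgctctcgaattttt

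Of 33 members, 25 had a promoter in the table, and in the 250 bases before the start 4 of these (Bard1, Brca2, Chek2 and Fancg) held the E2F letters, or 16%, against 1.91% of 27025 promoters. CCAAT or its complement was in 13 of 25 (52%), against 34.5% of all, and TTTGAA was in 1 (Bard1), or 4%, against 16.3%. Xrcc3 held 6 matches to CCAAT, of which a pair abut on opposite strands, Brca1 held 1, and Mus81 held none of the letters in the stretch shown. These are matches of letters in a fixed window. They are not binding sites, and a missing match says nothing of the factor.

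Mki67, a protein of cycling cells that serves here as a measure of proliferation, had 44 counts in F361, or 3.24 CPM (2.41 to 4.35). It was at 15.2 CPM in the splenic tumor line, 33.9 in F326 ROV, 58.6 in F364 ROV, 64.7 in F319 ROV, 69.9 in F364 LOV and 122 in F318 ROV. In libraries 8 to 11 it was at 177 (F319 uterus), 283 (F318 LOV), 310 (F339 ROV) and 375 CPM (F333 uterus). The lines lowest in Brca1 and Bard1 were thus also the lines lowest in Mki67.

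As a ratio to Mki67 counts, Brca1 in F361 was 0.136 (exact 95% interval 0.0475 to 0.321), which was the median of the 11 lines. The other ratios were 0.158 in the splenic tumor line, 0.156 in F364 ROV, 0.135 in F364 LOV, 0.197 in F326 ROV, 0.0837 in F319 ROV, 0.0976 in F318 ROV, 0.167 in F339 ROV, 0.118 in F318 LOV, 0.315 in F319 uterus and 0.0852 in F333 uterus. By this ratio the lowest lines were F319 ROV (0.0690 to 0.101) and F333 uterus. The range over lines went from 127-fold by CPM to 3.77-fold by ratio to Mki67. The place of F361 depended on the gene used as scale. As a ratio to the summed counts of the M phase genes, Brca1 was lowest in F361, at 0.00545 (0.002 to 0.0119), next to 0.00847 (0.00702 to 0.0101) in F319 ROV, and these intervals overlapped. As a ratio to the summed counts of the S phase genes it was again lowest in F361, at 0.00273 (0.001 to 0.00596), and this interval did not meet that of F319 ROV, at 0.00821 (0.00681 to 0.00982). The highest line by this sum was F339 ROV, at 0.0233, so the range was wider than by ratio to Mki67.

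Brca2 behaved otherwise. Its ratio to Mki67 was 0.932 (0.594 to 1.46) in F361 and 0.212 (0.154 to 0.288) in the splenic tumor line, and it was 0.0669 to 0.111 in the 9 other lines. F361, low in Brca2 by CPM, was thus the highest line by ratio, and F326 ROV was lowest by both measures. By ratio the interval of F326 ROV (0.0458 to 0.0948) held that of F364 LOV, at 0.0679 (0.0530 to 0.0859), so its place is not resolved. Bard1 ratios ran from 0.0235 in F319 ROV to 0.126 in F318 LOV among the 10 lines with counts. Palb2 ratios ran from 0.0149 in F333 uterus to 0.182 (0.0739 to 0.391) in F361.

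Over all members, F361 was the lowest of the 11 lines by CPM for 18 of 33 genes and the splenic tumor line for 10. Of the 16000 genes with a mean of at least 10 counts other than Mki67, F361 was lowest for 21.6% and the splenic tumor line for 11%. The exceptions were Brca2 and Fancl (lowest in F326 ROV, as 7.08% of all genes), Rad51d (F364 ROV, 7.29%), Nbn (F364 LOV, 10%) and Mus81 (F318 LOV, 14.6%). With F361 left out, the splenic tumor line was lowest for 20 of 33, against 18% of all genes. The F319 uterus line was highest for 14 members (20.5% of all genes), F339 ROV for 9 (12.2%), F318 LOV for 4 (15.2%) and F333 uterus for 4 (9.6%). Xrcc3 was highest in F364 LOV (5.19% of all genes) and Mus81 in F326 ROV (6.16%). Within libraries 8 to 11 no line stood lowest for most members: F333 uterus was lowest for 14 (32.3% of all genes), F318 LOV for 10 (26.8%), F319 uterus for 7 (22%) and F339 ROV for 2 (16.4%).

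By ratio to Mki67, F361 was the highest line for 25 of 33 members, against 92.4% of all genes. The share was thus below that of all genes, in a library with 44 Mki67 counts. By ratio to the M phase sum F361 was highest for 21 members (74.6% of all genes) and lowest for 7, namely Brca1, Bard1, Rad51b, Rad54b, Brip1, Fancd2 and Fanci (1.01%). By ratio to the S phase sum it was highest for 16 (64.8%) and lowest for 9, the same 7 with Rad54l and Exo1 (1.71%). These lowest places rest on few counts in F361, which had 0 for Bard1 and Rad51b, 2 for Rad54b, Brip1 and Fanci, 6 for Brca1 and Fancd2, 7 for Rad54l and 8 for Exo1. By ratio to Mki67, F319 uterus was highest for Brca1, Rad54l, Rad54b, Brip1, Fancd2 and Fanci, 6 of 33 members, where 1.05% of all genes were highest. By the same ratio Bard1 was highest in F318 LOV (0.375%) and Rad51b in the splenic tumor line (4.01%). By ratio to the S phase sum F339 ROV was highest for Brca1, Brip1, Fancd2 and Fanci, with intervals that overlapped those of F319 uterus. By ratio to the M phase sum F319 uterus stayed highest for Brca1. Brip1 was then highest in the splenic tumor line, Fancd2 in F326 ROV and Fanci in F364 LOV. The lowest line by ratio to Mki67 was F333 uterus for 15 of 33 members, against 52% of all genes, but for 1 member by ratio to the M phase sum (18.5% of all genes) and 0 by ratio to the S phase sum (20.6%). By ratio to Mki67 it was F319 ROV for Brca1, Blm, Fanci and Eme1 (0.688% of all genes), and F318 LOV for Rbbp8, Fancl, Fancm and Mus81 (17.7%). The others were lowest in F364 LOV (Rad51c, Brip1 and Fancb, 2.02% of all genes), F326 ROV (Brca2 and Rad54b, 1.04%), F361 (Bard1 and Rad51b, both at 0 counts, 0.662%), F339 ROV (Mre11a and Fance, 12.8%) and F364 ROV (Chek1, 3.06%).

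**Figure D2:**
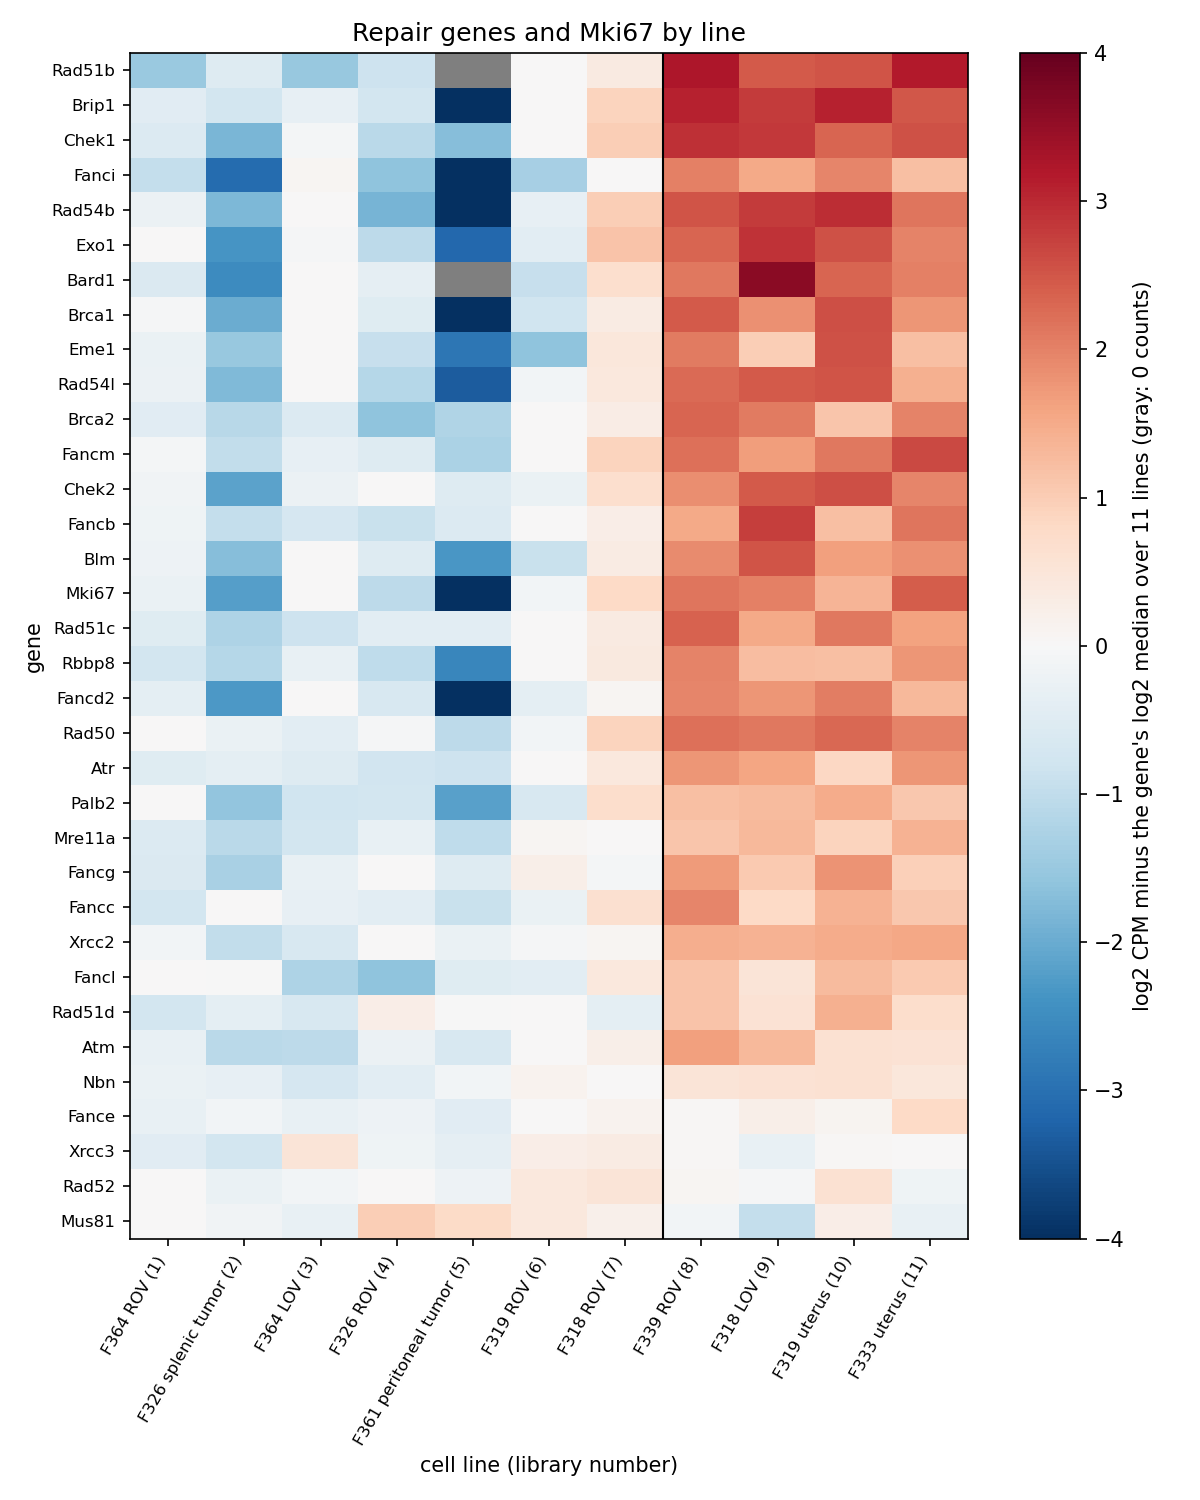
The 33 repair genes and Mki67 (rows) in the 11 lines (columns, library number in brackets), as log2 CPM minus the gene's log2 median over the lines, with gray for 0 counts and the color scale ending at 4 in both directions. Rows are ordered by the ratio of the median of libraries 8 to 11 (right of the black line) to that of libraries 1 to 7, from Rad51b at the top, whose median of libraries 1 to 7 is a library with 3 counts, through Brip1 (10.5) to Mus81 (0.760) at the bottom. F361 is the lowest line in 18 rows of members and the F326 splenic tumor line in 10.

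The difference between the library sets covered most of the pathway. Of 33 members, 29 were higher by CPM in every library of 8 to 11 than in any library of 1 to 7, where 26.1% of all genes were, and 0 were lower throughout, where 16.7% of all genes were. The 4 members that overlapped were Xrcc3, Rad52, Fance and Mus81. Rad51b, 1 of the 29, averaged under 10 counts in libraries 1 to 7 and passed the count minimum only through libraries 8 to 11. After scaling by the trimmed mean of M values (TMM), 27 members were higher throughout (20.4% of all genes), since Rad51d and Fancl then overlapped as well. Of 28 muscle fiber genes with enough counts, 26 were lower in every library of 8 to 11, which the choice of the cut by such reads made likely beforehand. With the muscle and Y-linked lists taken out of the totals, 28 members were higher throughout (21.9% of 15968 genes).

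Among genes of end resection, Exo1, an exonuclease, had the widest gap, with a median of 28.3 CPM in libraries 8 to 11 against 3.85 in libraries 1 to 7 (7.34-fold). Blm, a helicase, was 5.21-fold higher in the median, Rbbp8, which encodes CtIP, 4.81-fold, and Rad50 and Mre11a, subunits of the MRN complex, 4.77-fold and 3.38-fold. Nbn, the remaining MRN subunit, differed least (49.6 against 28.2 CPM, 1.76-fold). The counts of the MRN subunits thus stood in another proportion. The ratio of Rad50 to Nbn counts was 1.34 to 1.53 in libraries 8 to 11, 0.399 to 0.866 in the ovary and splenic lines of libraries 1 to 7, and 0.248 (0.198 to 0.307) in F361.

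Of the checkpoint kinases, Chek1, which acts below ATR at stalled forks, was at 18.1 to 27.3 CPM in libraries 8 to 11 and at 1.01 to 7.14 in libraries 1 to 7, and the median ratio was 9.40. Chek2, which acts below ATM, had a median ratio of 5.49, Atr, a sensor kinase of single strands, 4.42, and Atm, a sensor kinase of double-strand breaks, 2.43. The ratio of Atm to Atr counts was 0.580 (0.518 to 0.647) in F333 uterus and 1.08 to 1.19 in the other libraries of 8 to 11.

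Rad51b, Rad51c, Rad51d, Xrcc2 and Xrcc3 encode related proteins that assist strand pairing in complexes with each other. Rad51b was near the limit of detection in libraries 1 to 7. It had 0 counts in F361, at most 3 counts in 4 libraries, at most 0.457 CPM (F318 ROV) in the first set, with 1.96 to 3.37 CPM in the second. The median ratio was 2.96 for Xrcc2 and 2.49 for Rad51d, and Rad51c had medians of 6.63 and 1.33 CPM. Xrcc3, whose promoter letters are given above, overlapped between the sets. It was at 13.0 CPM in F364 LOV, its highest line, 11.5 in F318 ROV, 11.1 in F319 ROV, 8.21 in F326 ROV, 7.22 in F361, 6.72 in F364 ROV and 5.51 in the splenic tumor line, against 7.42 in F318 LOV, 9.19 in F333 uterus, 9.45 in F339 ROV and 9.47 in F319 uterus.

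Rad52, which anneals single strands, was the flattest member, with 11.5 CPM in the splenic tumor line, 12.0 in F361, 12.6 in F364 LOV, 13.7 in F364 ROV, 13.8 in F326 ROV, 18.2 in F319 ROV and 19.6 in F318 ROV. Libraries 8 to 11 lay within that span but for F319 uterus, at 12.2 CPM in F333 uterus, 13.4 in F318 LOV, 14.5 in F339 ROV and 21.1 in F319 uterus. The motor proteins Rad54l and Rad54b, which act on chromatin during strand pairing, were 6.04-fold and 7.91-fold higher in the medians of libraries 8 to 11. Rad54b shares exon bases with Fsbp on the same strand, so its value is uncertain.

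In the Fanconi core complex, Fancm, which finds the stalled fork, had the largest median ratio (5.66), followed by Fancb (5.26), Fancg (3.24), Fancc (2.98) and Fancl, the ubiquitin ligase (2.85). Fance was nearly flat at 23.0 (F361) to 34.8 CPM (F318 ROV) in libraries 1 to 7, against 32.7 to 55.3 CPM in libraries 8 to 11. The targets of the core complex, Fanci and Fancd2, had median ratios of 8.48 and 4.77. Fanci was at 0.147 (F361) to 4.49 CPM (F364 LOV) in libraries 1 to 7, against 9.89 (F333 uterus) to 17.2 CPM (F339 ROV) in libraries 8 to 11. Fancd2 was at 0.442 CPM in F361, 1.71 in the splenic tumor line, 5.48 to 8.91 in the ovary lines of libraries 1 to 7, and 20.9 (F333 uterus) to 35.1 CPM (F319 uterus) in libraries 8 to 11. Brip1, a helicase that binds BRCA1, was at 0.147 CPM (2 counts) in F361 and at 18.8 to 28.6 CPM in libraries 8 to 11. Exons of Polg overlap those of Fanci on the other strand, as do those of Lrrc41 and Rad54l and those of Efemp2 and Mus81. Other members also overlap antisense exons, among them Palb2, Fancl, Fancc, Fancm, Atr, Rbbp8, Mre11a and Eme1. Atr shares exon bases with Gm24004 on the same strand as well. The strand setting of the counting was not given in the sources used here, so reads of such antisense neighbors cannot be told apart from those of the gene.

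Mus81 and Eme1, which form 1 nuclease, parted. Mus81 was highest in F326 ROV (46.7 CPM) and F361 (39.5), at 31.7 in F319 ROV, 26.8 in F318 ROV, 23.5 in F364 ROV, 21.5 in the splenic tumor line and 19.1 in F364 LOV, and at 12.2 in F318 LOV, 19.1 in F333 uterus, 21.6 in F339 ROV and 28.4 in F319 uterus. Eme1 was at 0.442 CPM in F361 and at 6.55 to 19.2 CPM in libraries 8 to 11. The ratio of Eme1 to Mus81 counts was 0.0112 (0.00408 to 0.0245) in F361, 0.0339 to 0.172 in the other libraries of 1 to 7, and 0.393 to 0.677 in libraries 8 to 11. Over the 11 lines Eme1 ranged 43.5-fold by CPM and Mus81 3.82-fold.

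Levels between genes were compared per kilobase of annotated exon (GENCODE M21). On this scale Nbn was the highest member in both sets, with a median of 11.1 CPM per kilobase in libraries 1 to 7 and 19.6 in libraries 8 to 11. Fance (8.56) and Mus81 (7.52) came next in libraries 1 to 7, and Rad50 (13.3) and Fance (11.1) in libraries 8 to 11. Brca1 was at 0.782 and 4.99, Brca2 at 0.348 and 2.06, and Bard1 at 0.347 and 2.41 CPM per kilobase. Rad51b was lowest in both, at 0.0533 (a library with 3 counts) and 0.703.

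The members fell along a range by how far division by Mki67 leveled the lines. This measure was chosen after the values were seen. For each gene with a count in every library, the log2 of the highest over the lowest line was taken before and after division. The range narrowed for 15 of 31 members, against 7.62% of 14484 genes, for 14 of 18 S phase genes, for 19 of 19 M phase genes, for 6 of 13 mesenchymal genes, for 9 of 48 other homologous recombination and Fanconi genes and for 0 of 11 genes of non-homologous end joining. Without F361 it narrowed for 24 of 33 members, against 15% of 14579 genes.

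The narrowest ranges by ratio to Mki67 were those of Exo1 (6.05 to 1.73), Fancd2 (6.31 to 1.83), Fanci (6.87 to 1.83), Brca1 (6.98 to 1.91) and Brip1 (7.60 to 2.08). By CPM the lowest line of all 5 was F361, so that the first values are imprecise. The 95% interval of the CPM range, from counting error, was 5.004 to 9.92 for Fanci and 5.74 to 10.6 for Brip1, both at 2 counts in F361, and 5.86 to 8.43 for Brca1. Exo1 ratios lay between 0.0550 (F333 uterus) and 0.182 (F361), Fancd2 ratios between 0.0557 (F333 uterus) and 0.198 (F319 uterus), and Fanci ratios between 0.0263 (F319 ROV) and 0.0938 (F319 uterus). By this ratio F361 was highest for Exo1 and lay among the other lines for the remaining 4 genes, on 2 to 8 counts a gene, so that its intervals are wide. By ratio to the M phase sum F361 was the lowest line for these 4 genes, and by ratio to the S phase sum for all 5. With the S phase sum the range was wider than with Mki67 for all 5. Brip1 then ran from 0.000911 (F361) to 0.0128 (F339 ROV) and Fanci from 0.000911 (F361) to 0.00773 (F339 ROV). With the M phase sum it was wider for Brip1 and Fanci and narrower for Exo1, Fancd2 and Brca1. With the M phase sum the interval of F361 overlapped those of 10 of 10 other lines for Fanci, 9 for Fancd2, 6 for Brip1 and 5 for Brca1, and with the S phase sum those of 5 for Exo1, 4 for Fanci, 3 for Brip1, 1 for Fancd2 and 0 for Brca1. For Brca2 and Palb2 the range hardly moved (3.92 to 3.80 and 3.65 to 3.61), and F361 decided it: without F361 the ranges by ratio were 1.67 and 1.97.

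The widest ranges by ratio were those of Mus81 (1.94 to 8.14), Rad52 (0.88 to 6.84) and Xrcc3 (1.24 to 6.51). Mus81 ratios ran from 0.0432 in F318 LOV to 12.2 in F361, Rad52 ratios from 0.0324 in F333 uterus to 3.70 in F361, and Xrcc3 ratios from 0.0245 in F333 uterus to 2.23 in F361. With Fance, these were the 4 members whose ratio was lower in every library of 8 to 11 than in any of 1 to 7, as for 49.3% of all genes, and 0 members were higher throughout by ratio (0.0125% of all genes).

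**Figure D3:**
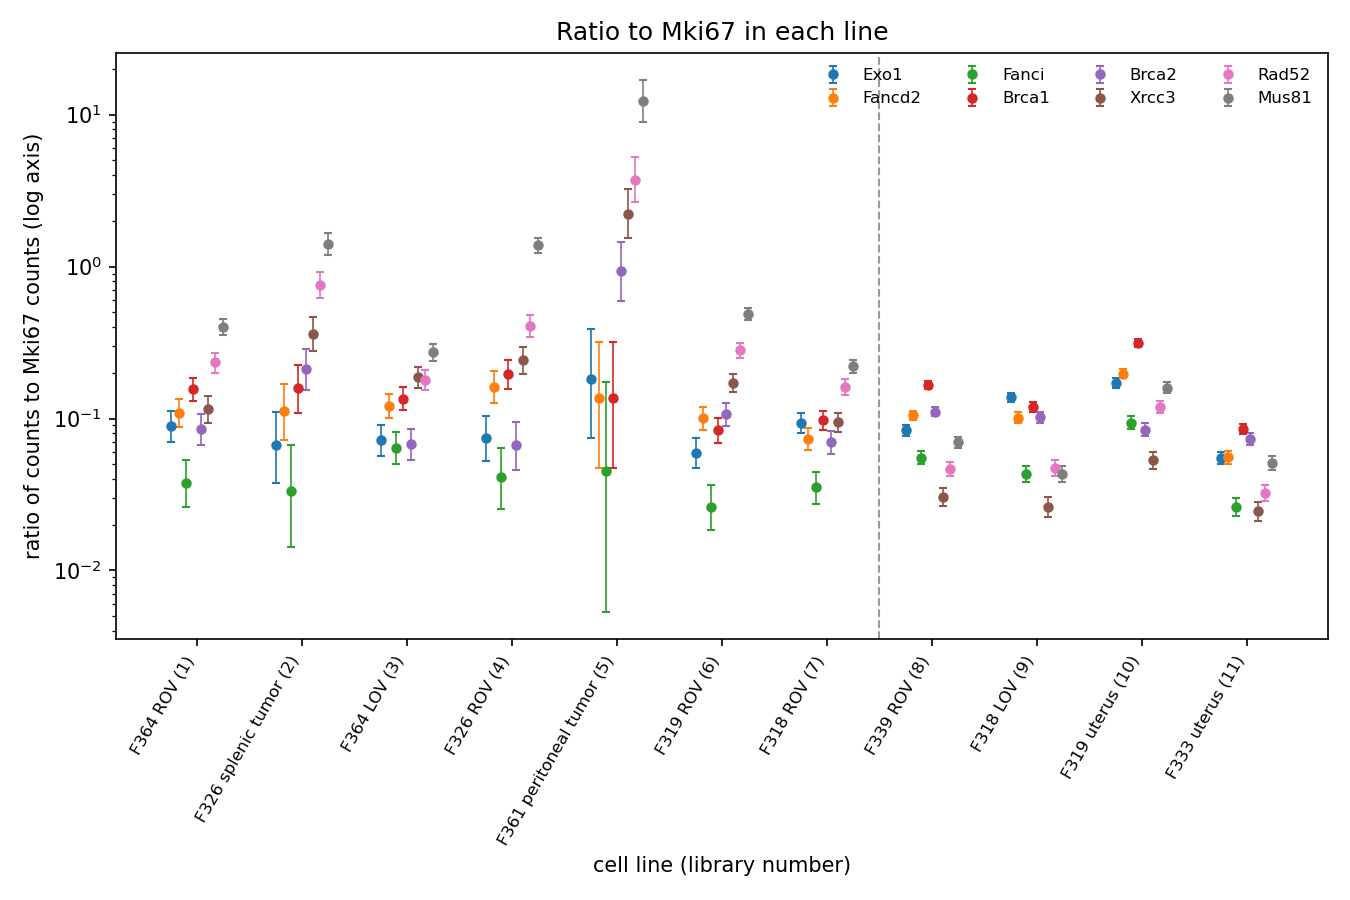
Ratio of counts to Mki67 counts (log axis) in the 11 lines for the members with the narrowest range (Exo1, Fancd2, Fanci), for Brca1 and Brca2, and for those with the widest (Xrcc3, Rad52, Mus81), with exact 95% intervals for counting error and points set apart sideways. In F361 Mus81 reaches 12.2 and Brca2 0.932, while Brca1 stays at 0.136. The dashed line separates libraries 1 to 7 from 8 to 11.

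**Figure D4:**
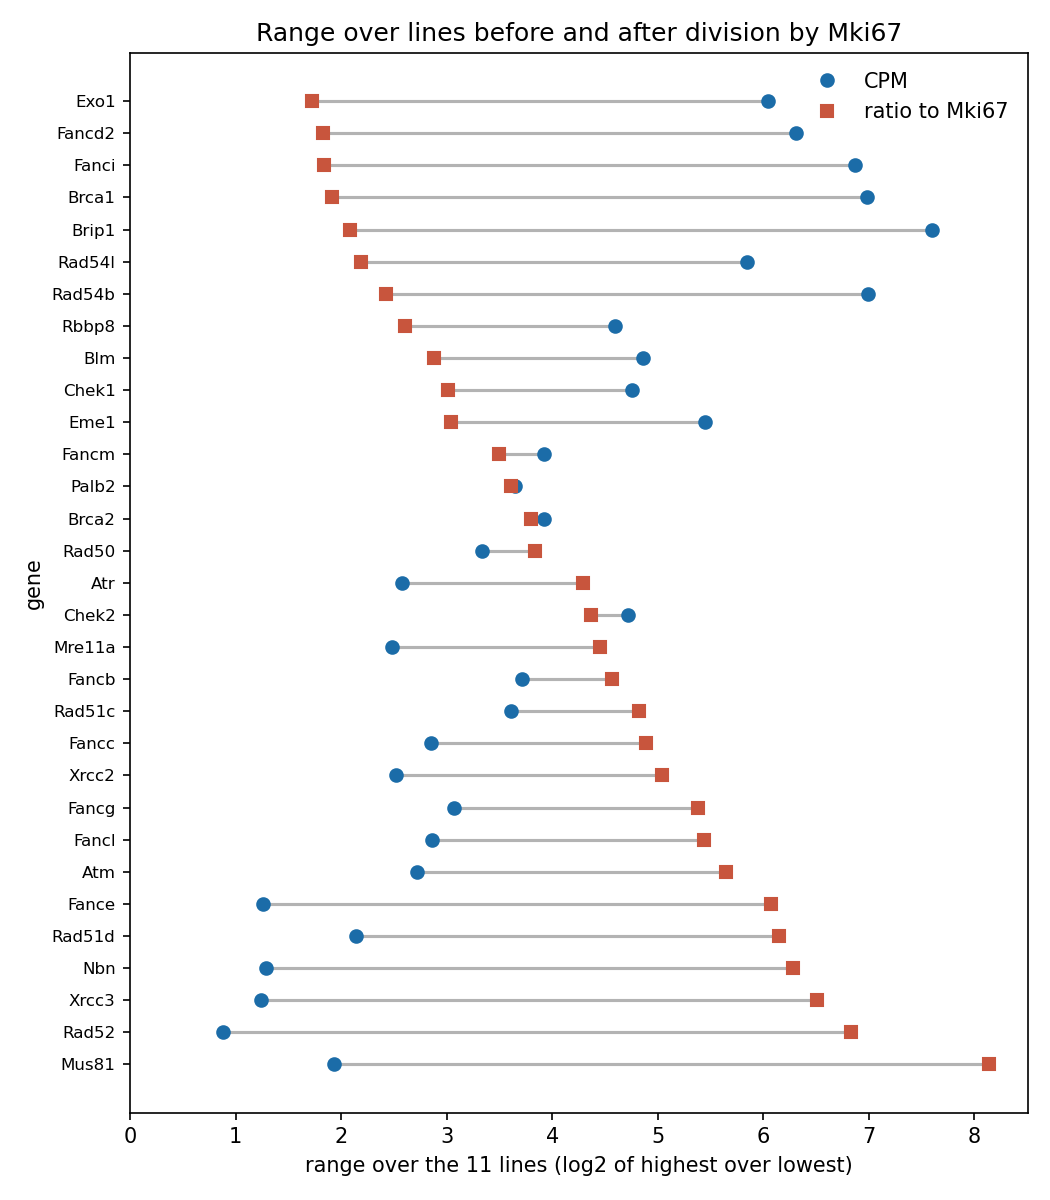
Range over the 11 lines, as log2 of the highest over the lowest line, by CPM (circles) and by ratio to Mki67 (squares), for the 31 members with a count in every library (Bard1 and Rad51b had 0 counts in F361). From Exo1 at the top (6.05 by CPM, 1.73 by ratio) to Mus81 at the bottom (1.94 by CPM, 8.14 by ratio), the squares move from left to right of the circles. The circles of Fanci, Brip1 and Rad54b rest on 2 counts in F361.

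The uterus lines were compared with the ovary lines to ask whether the organ of origin went with the level of repair genes. By edgeR's quasi-likelihood test, 0 of 33 members and 0% of 17446 genes passed an adjusted p of 0.05, and 1 member and 2308 genes (13.2%) had an unadjusted p under 0.05. DESeq2 called 0 members and 1315 genes (7.54%). The member was Fancm (4.72% of all genes had such a p and a positive value), with 26.4 CPM in F319 uterus and 38.0 in F333 uterus against 4.27 to 28.0 (median 6.04) in the ovary lines, with a log2 fold change of 1.45 ± 0.58 (SE) and an adjusted p of 0.359. Only Xrcc2 was higher in both uterus lines (18.1 and 18.9 CPM) than in every ovary line (4.18 to 17.6, median 6.48), as were 5.17% of all genes, and its log2 fold change was 0.91 ± 0.46.

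Rad51b had 2.03 CPM in F319 uterus and 3.25 in F333 uterus, against 0.127 to 3.37 (median 0.358) in the ovary lines, and Eme1 had 19.2 and 7.52 against 1.07 to 13.8 (median 3.29). Both overlapped between the groups. The log2 fold changes were 1.48 ± 1.05 for Rad51b and 1.35 ± 0.71 for Eme1, and the lowest were -0.37 ± 0.52 for Mus81, -0.25 ± 0.40 for Xrcc3 and -0.07 ± 0.32 for Rad52. Brca1 differed by 1.18 ± 0.69, Brca2 by 0.71 ± 0.81, Bard1 by 0.56 ± 1.02 and Palb2 by 0.79 ± 0.55. Brca2 was at 0.09 without F333 uterus, and Bard1 at 1.49 without F318 LOV. Of 33 members, 30 had a positive value with a median of 0.88, against -0.05 over all genes. Both uterus lines are in libraries 8 to 11, and within these libraries 15 members were positive and 18 negative, with a median of -0.01. The muscle fiber list, which differed between the library sets, had a median log2 fold change of -3.54 in the uterus comparison, and its part in the members' values was not tested. Within libraries 8 to 11 Brca1 differed by 0.04 ± 0.40, Brca2 by -0.53 ± 0.48, and Fancm by 0.48 ± 0.43.

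With Mki67 counts as the scale, 0 of 33 members and 0% of 17445 genes passed in the uterus comparison by edgeR, while 0 members and 3067 genes (17.6%) had an unadjusted p under 0.05. This scale moved the median of all genes to -1.35, and 30 of 33 members lay above that median. The median of the members was -0.09. Brca1 was at 0.56 ± 0.65, Brca2 at -0.14 ± 0.63, Bard1 at 0.11 ± 0.82 and Palb2 at -0.14 ± 0.81 on the log2 scale. No direction can be given for 3 of these. Brca1 was -0.68 without F319 uterus, Bard1 was -0.75 without F319 uterus and -0.02 without F319 ROV, and Palb2 was 0.42 without F333 uterus. Bard1 was also negative with the M phase sum (-0.14) or the S phase sum (-0.0085) as the scale.

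The splenic and peritoneal tumor lines were compared with the ovary lines in the same way. The peritoneal line, F361, is also the line described as lacking expression of mutant p53. Its site and this trait cannot be told apart. Of 33 members 0 passed by edgeR, as did 0% of 16768 genes, with a lowest adjusted p of 0.561 among members. DESeq2 called 6 members, all lower, and 302 genes (1.8%): Fancd2 (adjusted p = 0.00429), Exo1 (0.0124), Fanci (0.0133), Brca1 (0.0158), Bard1 (0.0267) and Rad54l (0.0441). Before adjustment, 13 members had a p under 0.05 in edgeR (8.18% of all genes), and all 13 had negative values, where 6.49% of all genes had such a p and a negative value. Both tumor-site lines lay below every ovary line for 14 of 33 members, against 11.7% of all genes, and above for 0 (3.33%).

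The log2 fold changes were lowest for Bard1 (-4.67 ± 1.74), Fanci (-3.86 ± 1.19) and Exo1 (-3.66 ± 1.16). Bard1 had 0 counts in F361 and 8 in the splenic tumor line, and its value was -3.74 without F361 and -10.2 without the splenic tumor line, the latter against a group at 0 counts and therefore no estimate of size. Brca1 stood at -3.32 ± 1.06 (-2.60 without F361, -4.98 without the splenic tumor line) and Palb2 at -1.91 ± 0.69, and for both genes the tumor-site lines did not overlap the ovary lines. Brca2 stood at -1.67 ± 0.94 and overlapped. Nbn was at 27.4 CPM in the splenic tumor line and 31.5 in F361, against 21.3 to 50.8 (median 34.2) in the ovary lines, and Fance at 29.0 and 23.0 against 25.8 to 36.9 (median 31.6). The highest values were 0.44 ± 0.51 for Mus81, 0.03 ± 0.27 for Nbn and 0.01 ± 0.22 for Fance. Of 33 members, 30 were negative, with a median of -1.67 against -0.01 over all genes. Mki67 itself stood at -3.52 (edgeR adjusted p = 0.561). Both tumor-site lines are in libraries 1 to 7, and within these libraries 28 of 32 members tested were negative, with a median of -0.63, and Brca1 stood at -2.42 ± 0.67 (edgeR adjusted p = 0.365). All 28 muscle fiber genes tested had positive values in the tumor-site comparison, with a median of 0.84, and their part was not tested.

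**Figure D5:**
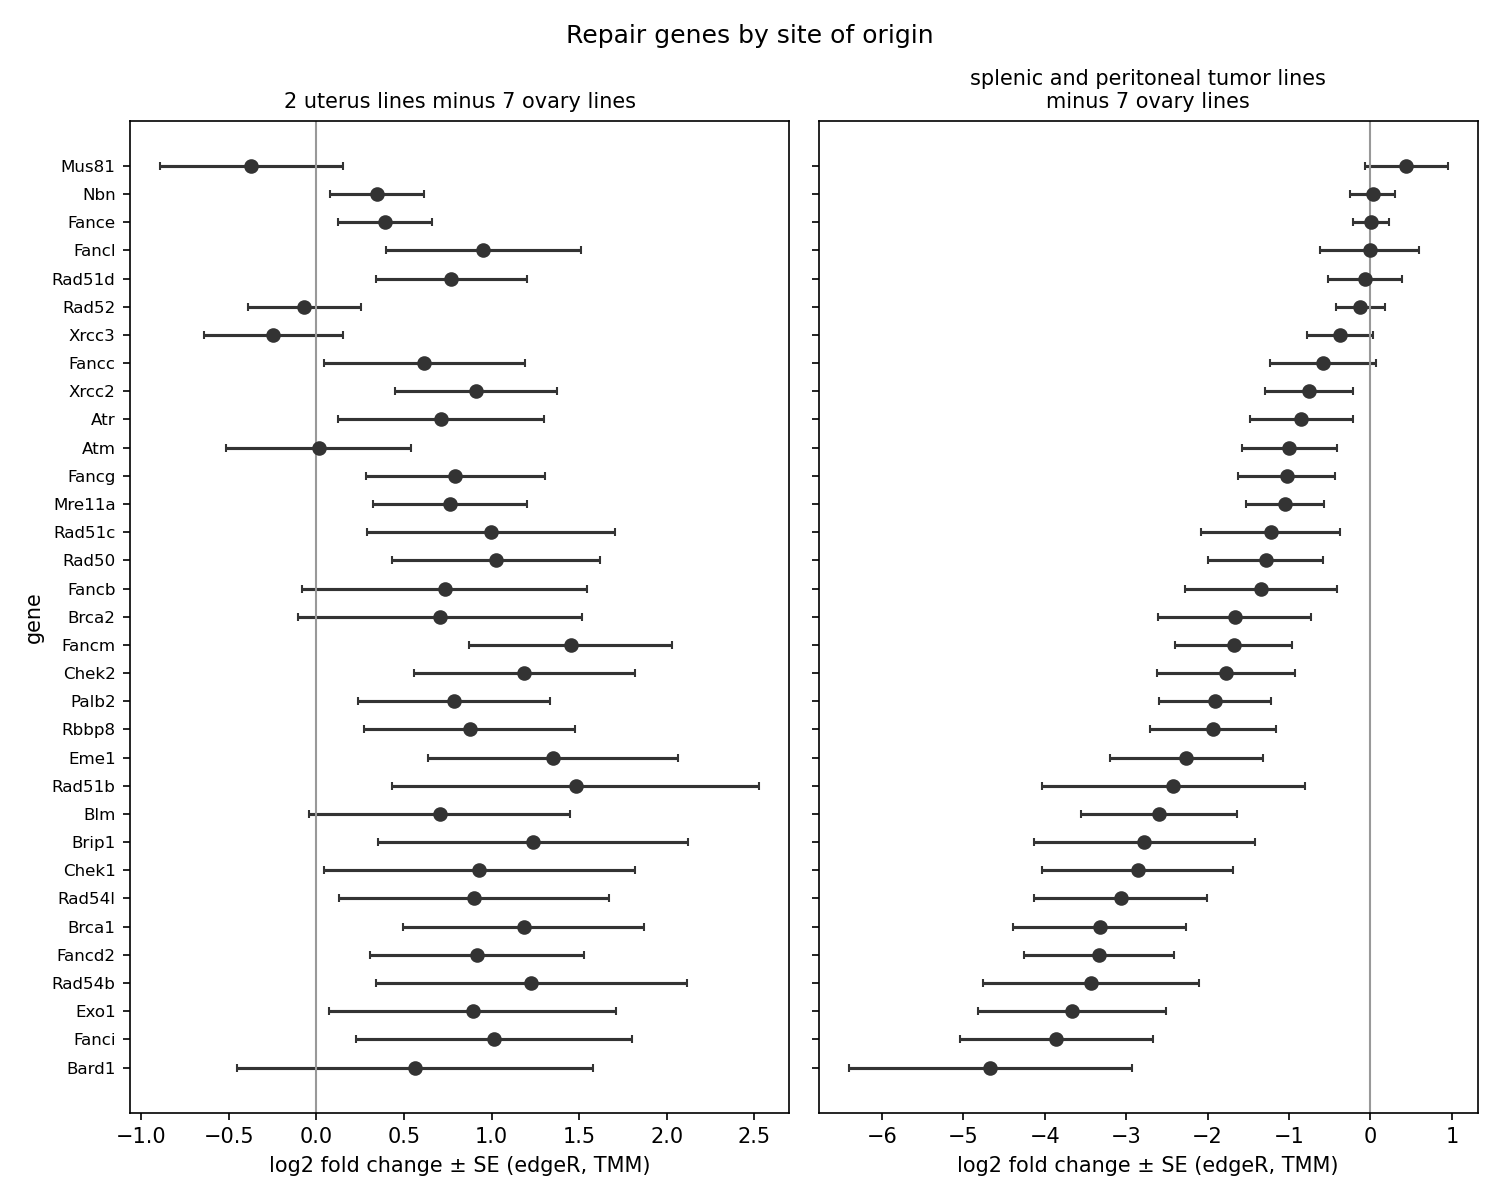
Log2 fold change with its SE (edgeR after TMM) of the 33 members in the 2 uterus lines (left) and in the splenic and peritoneal tumor lines (right), each against the 7 ovary lines, ordered by the right panel. No member passed an adjusted p of 0.05 in either comparison by edgeR. The right panel runs from Bard1 (-4.67) at the bottom to Mus81 (0.44) at the top.

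With Mki67 counts as the scale, 21 of 33 members passed in the tumor-site comparison, all higher, but so did 89.4% of 16767 genes. Both tumor-site lines were above every ovary line by ratio for 20 members, against 79.1% of all genes. The median of all genes moved to 3.64, and 29 of 33 members lay below it. Without F361, 0 members and 0 genes passed. The calls also depended on the gene used as scale. With the M phase sum 19 members passed (76.1% of all genes), without Palb2 and Rbbp8, and with the S phase sum 6 passed (41%), namely Nbn, Atr, Rad51d, Fancc, Fance and Fancl. The log2 differences were then 1.73 and 0.72 for Brca2 and 1.06 and 0.13 for Palb2. The members that follow are those with the Mki67 scale. Brca1 (0.12 ± 0.73), Fancd2 (0.17 ± 0.73), Fanci (-0.17 ± 0.89), Rad54b (0.29 ± 0.87), Exo1 (0.47 ± 0.78), Brip1 (0.63 ± 0.81) and Rad54l (0.75 ± 0.73) did not pass. Brca1 was -0.31 with the M phase sum and -1.22 with the S phase sum, Fancd2, Exo1 and Rad54b turned negative with both sums as well, and Brip1 and Rad54l with the S phase sum. Chek1 (1.67 ± 0.79), Blm (1.48 ± 0.71), Eme1 (1.45 ± 0.81), Rad51b (1.04 ± 1.20) and Bard1 (-1.35 ± 1.16) did not pass either, and the first 4 of these turned negative with the S phase sum.

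These differences include that of Mki67 itself, which was low in both tumor-site lines, and are not differences in CPM. Of the 21 members, 17 lay below the median of all genes on this scale. The values that follow are ratios to Mki67 counts in the splenic tumor line, in F361 and, as lowest, median and highest, in the ovary lines. Brca2 was at 0.212 and 0.932, against 0.0669, 0.0855 and 0.111 in the ovary lines, a log2 difference of 2.70 ± 0.67 (edgeR adjusted p = 0.00305), which was 1.28 and did not pass without F361. Palb2 was at 0.0583 and 0.182, against 0.0199, 0.0263 and 0.0472, a difference of 1.90 ± 0.82 (edgeR adjusted p = 0.0434). The Palb2 value did not pass when F361 (0.91) or any 1 of 6 ovary lines was left out. Both genes lay further below the median of all genes on this scale than most of the other 19.

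Of the MRN subunits and CtIP, Nbn was at 1.80 and 9.73 against 0.156, 0.304 and 0.756, a log2 difference of 3.88 ± 0.73. Mre11a was at 0.804 and 3.95 against 0.180, 0.226 and 0.618, and Rad50 at 0.887 and 2.41 against 0.170, 0.244 and 0.457, differences of 2.93 and 2.63. Rbbp8 was at 0.483 and 0.818 against 0.134, 0.187 and 0.248, which was the smallest difference of the 21 (1.75 ± 0.59). In all 4 genes both tumor-site lines were above every ovary line by ratio.

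The sensor kinase Atm was at 0.487 and 3.14 against 0.110, 0.157 and 0.396, and Atr at 0.608 and 2.11 against 0.121, 0.133 and 0.211, differences of 3.16 and 3.17. Chek2 was at 0.0917 and 1.32 against 0.0724, 0.0798 and 0.181, a difference of 2.80. For Chek2 the splenic tumor line lay among the ovary lines, and F361 above them.

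Of the related genes that assist strand pairing, Rad51d was at 0.425 and 2.57 against 0.0446, 0.0770 and 0.295, and Rad51c at 0.05 and 0.409 against 0.0145, 0.0216 and 0.0394, differences of 3.81 and 3.20. Xrcc2 was at 0.217 and 1.66 against 0.0558, 0.0599 and 0.191, and Xrcc3 at 0.362 and 2.23 against 0.0263, 0.115 and 0.242, differences of 3.39 and 3.38. Rad52 was at 0.754 and 3.70 against 0.0467, 0.180 and 0.407, a difference of 3.52. F361 was above the splenic tumor line in all 5 of these genes.

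In the Fanconi core complex, Fancl was at 0.267 and 0.886 against 0.0204, 0.0394 and 0.0693, and Fance at 1.91 and 7.11 against 0.106, 0.370 and 0.805, differences of 3.87 and 3.59. Fancc was at 0.325 and 0.818 against 0.0301, 0.0617 and 0.108, Fancb at 0.117 and 0.727 against 0.0308, 0.0519 and 0.0825, and Fancg at 0.108 and 0.864 against 0.0292, 0.0455 and 0.118. These differences were 3.20, 3.10 and 3.12, and the splenic tumor line overlapped the ovary lines for Fancg. Fancm was at 0.200 and 0.773 against 0.0684, 0.0924 and 0.126, a difference of 2.40, and the nuclease subunit Mus81 at 1.41 and 12.2 against 0.0432, 0.274 and 1.38, a difference of 4.05 ± 1.02. Relative to the median of all genes on this scale, Mus81, Nbn, Fancl and Rad51d lay above and the other 17 below.

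Lines of the same mouse gave 4 pairs, compared first by CPM. The 2 ovary lines of F364, both in libraries 1 to 7, differed by a median log2 ratio of -0.0031 (LOV over ROV), with 15 members higher and 18 lower, where 48.2% of 15603 genes were higher (median -0.0031). The splenic tumor line of F326 was higher than its ovary line for 9 of 33 members, where 45.4% of all genes were higher (median -0.09). It was lower for 24, and the median of the members was -0.62, down to -2.16 for Bard1. The F319 uterus line was above its ovary line for 31 of 33 members (median 2.11), up to 4.16 for Eme1, with Xrcc3 at -0.22, where 58.3% of all genes were above (median 0.33). F318 LOV was above F318 ROV for 30 of 33 (median 1.23), from -1.13 for Mus81 to 2.94 for Bard1, where 55.2% of all genes were above (median 0.16). By ratio to Mki67 the pair of F326 turned, with the splenic tumor line higher for 25 members and lower for 8 (median 0.54), where 85.3% of all genes were higher. The F319 uterus line was then above its ovary line for 21 of 33 (median 0.65, 20.4% of all genes), F318 LOV above F318 ROV for 17 (median 0.01, 15.6%) and F364 LOV above F364 ROV for 9 (median -0.26, 31.4%). The pairs of F319 and F318 each span both library sets, so the site (F319) or the side of the ovary (F318) and the library set cannot be told apart in them.

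Of 49 other homologous recombination and Fanconi genes with a mean of at least 10 counts, 27 were higher in every library of 8 to 11 and 1 was lower. Among 11 genes of non-homologous end joining, which joins ends without a template, 2 were higher and 1 lower, while 17 of 18 S phase genes and 19 of 19 M phase genes other than Mki67 were higher, against the same 26.1% of all genes. In the tumor-site comparison by edgeR, the median log2 fold change was -0.38 for 49 other recombination genes and -0.38 for end joining, beside -2.55 for S phase and -3.28 for M phase genes, and 0 genes of these lists passed. In the uterus comparison the medians were 0.53, 0.41, 0.77 and 0.94, and 0 passed.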

How the data were processed

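Bulk RNA sequencing of 11 OvTrpMyc lines was analysed. The authors aligned polyA-selected, paired-end reads to GRCm38 (mm10) with RNA STAR, removed duplicates with SAMtools RmDup, counted reads per gene with featureCounts and deposited raw counts for 28284 genes. Removing duplicates by position can lower the counts of strongly expressed genes. Tool versions and the strand setting were not given in the sources used here. Groups came from the sample titles. CPM are counts per 1e+06 of the library total. Wilson intervals of CPM and exact intervals of count ratios, both at 95%, cover counting error only. Groups were compared with edgeR 4.0.16 (quasi-likelihood, TMM, filterByExpr, Benjamini-Hochberg over all genes, threshold 0.05) in R 4.3.3, and again with log Mki67 counts as offset. The SE is the log2 fold change divided by the root of the F statistic. Alternatives were DESeq2 1.42.0, limma 3.58.1 voom with mouse as a block, other filters, other offsets, a library term and leaving out each line. The edgeR fit of the uterus comparison was run on simulated counts with a fixed spread and no library sets. That run does not show its power or error in these data. The table held no column outside the 11 lines, and no pair of columns was identical. Exon lengths came from GENCODE M21.

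The members and lists were chosen with earlier results of these data known. The core genes, Mki67, members past the threshold, and the 3 members with the widest and narrowest ratio ranges or the largest changes each way were to be given in full, and the other genes by counts and extremes. Genes with no row were not analysed here.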

Additional observations from a re-analysis of the deposited data

How the results depend on the processing

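The counts of members called were 0 under the alternatives run for the uterus comparison on both scales, and the library term or libraries 8 to 11 alone turned Brca2 (-0.48 and -0.53) and Bard1 (-0.81 and -0.87) negative there. Genes called in the uterus comparison were 1315 by DESeq2, 2 without a filter, 2 with limma-voom and 0 to 1 with 1 line left out; on the Mki67 scale they were 2 with the library term and 0 to 3 with 1 line left out. On that scale Bard1 was -0.14 with the M phase sum, -0.0085 with the S phase sum, -0.55 with the library term and -0.75 to 0.64 with 1 line left out, Palb2 was 0.41 with the library term and -1.07 to 0.42 with 1 line left out, and Brca1 was -0.68 (without F319 uterus) to 1.21. In the tumor-site comparison DESeq2 called 6 members and 302 genes. Scaled to Mki67, 0 to 23 members and 0 to 15230 genes were called with 1 line left out, with 0 of both only without F361, and the S phase sum gave 6 members and 6879 genes. Brca1 on that scale was -0.31 with the M phase sum and -1.22 with the S phase sum. The causes of these changes were not tested.

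With F361 left out, the splenic tumor line was lowest for 20 members (18% of all genes). F361 was highest by ratio to the S phase sum for 16 members (64.8%). F333 uterus was lowest for 1 member by ratio to the M phase sum (18.5%), for 0 by the S phase sum (20.6%), and for 25 by ratio to Mki67 within libraries 8 to 11 (57.5%). By ratio to Mki67, 0 members were higher (0.0125% of all genes) and 4 lower (49.3%) in all libraries of 8 to 11; by CPM, leaving out 1 line gave 29 to 30 higher (26.3% to 30.7%) and 0 lower (16.8% to 19.1%). Ranking, ranges and splits without F361, or within a library set, were added after seeing the data. The labels give no replicate numbers to pair lines by. With mouse as a random block, limma-voom called 2 genes and 0 members in the uterus comparison and 0 of both in the tumor-site comparison. Each comparison has 1 mouse with a line in both groups (F319 for uterus, F326 for tumor sites), and a fit with mouse as a fixed term was not run. With 1 line left out and TMM, Brca2 was 0.09 to 1.16 and Bard1 0.38 to 1.49 in the uterus comparison, and Brca1 was -4.98 to -2.60 and Bard1 -10.2 to -3.74 in the tumor-site comparison. On the Mki67 scale, Brca2 was 1.28 to 3.42 and Palb2 0.91 to 2.54 in the tumor-site comparison. F361 had 44 Mki67 counts, so ratios in that line are the least precise.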
